A study of Mus musculus with 1 sample.

Results

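Progress of a cell from G1 into S phase is set by D-type cyclins, the kinases they activate, the inhibitors of those kinases and the retinoblastoma protein. Described here are 10 mouse genes of this control, Ccnd1, Ccnd2, Ccnd3, Cdk4, Cdk6, Cdkn1a, Cdkn1b, Cdkn2a, Cdkn2b and Rb1, out of 32285 genes in the table. They were listed by name, and all 10 had UMIs (unique molecular identifiers, 1 per captured RNA molecule) in the kept cells.

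The study examined tumor cell ATP6V0A1 in colorectal cancer. The library used here came from MC38 tumors grown in C57BL/6J mice, with genotype WT and cell line MC38 cells. The study describes its control MC38 tumor cells as carrying a non-targeting short hairpin RNA (shNTC), which the label WT does not name. Cells of 5 control tumors had been pooled into 1 library of 3' tags, and a cell cannot be assigned to a mouse. The knockdown pool was not analysed here. With 1 library there are no replicates, so differences are descriptions of this pool, and the 95% intervals in brackets cover counting error only.

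Of 5307 called cells with 106631000 UMIs, 667 had more than 20% mitochondrial UMIs and 172 had the highest doublet scores, which left 4468 cells. Tumor cells numbered 1842, macrophages 1273, T cells 99 and fibroblasts 54, and 932 cells with a median of 1079 UMIs received no name. A cell with at least 2 UMIs of Mki67 and Top2a together was called cycling and a cell with 0 non-cycling, and cells with 1 were kept apart. This gave 1157 cycling and 418 non-cycling tumor cells, and 301 cycling and 673 non-cycling macrophages. Depth moved with the class, and the reason was not tested. The median was 50338 UMIs in cycling and 18684 in non-cycling tumor cells, against 12177 and 8867 in macrophages. Of tumor cells 62.8% (60.6–65.02%) were called cycling, and 32.4% (30.2–34.6%) had a UMI of either gene after thinning to 2000 UMIs, with 45 shallower cells left out. For macrophages the values were 23.6% (21.3–26.1%) and 22.95% (20.7–25.4%), with 14 left out. T cells and fibroblasts were not divided, and 18 of the 99 T cells and 16 of the 54 fibroblasts were cycling. These 16 fibroblasts, with a median of 11587 UMIs, held 307865 of the 589663 fibroblast UMIs. The 32 non-cycling fibroblasts had a median of 2306.5, so pooled fibroblast levels rest largely on few deep cycling cells.

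The label "Epithelial cells" was checked against defining epithelial genes, which were nearly absent. In the 1842 tumor cells Epcam had 1 UMI, Krt18 had 0, Krt8 had 7 and Cdh1 had 14, among 76905515 UMIs. Vim, a mesenchymal intermediate filament gene, stood at 3274 (3261–3286) CPM (UMIs of a gene per group, scaled to a common total) in the same cells. The tumor cells are therefore called by their rule, high tumor markers such as Shisal2b and Rhox5 over the myeloid clusters. Shisal2b was at 215 CPM in tumor cells and 13.8 in macrophages, and Rhox5 at 693 and 38.7. Xist, the RNA of the inactive X chromosome, was at 2.94 CPM in tumor cells, 799 in macrophages, 697 in T cells and 461 in fibroblasts, which set the tumor cells apart from the host cells. The 10 fibroblast markers summed to 33633 CPM in fibroblasts and 3253 in tumor cells. The 4 T cell markers summed to 5363 CPM in T cells and 1.97 in macrophages.

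D cyclins are made when growth factors signal, and they bind and activate CDK4 or CDK6. The active kinases phosphorylate the retinoblastoma protein, which releases E2F factors and with them the genes of DNA replication. INK4 proteins bind CDK4 and CDK6 directly, and CIP/KIP proteins inhibit cyclin-bound kinases.

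Each captured molecule gives 1 tag at its 3' end, so levels of different genes can be set side by side without scaling to length. A gene counts as past the fold when its ratio of levels is at least 2, or at most 0.5, with at least 50 UMIs in the compared groups together. These limits apply to the measured ratio and are not a test.

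**Figure D1:**
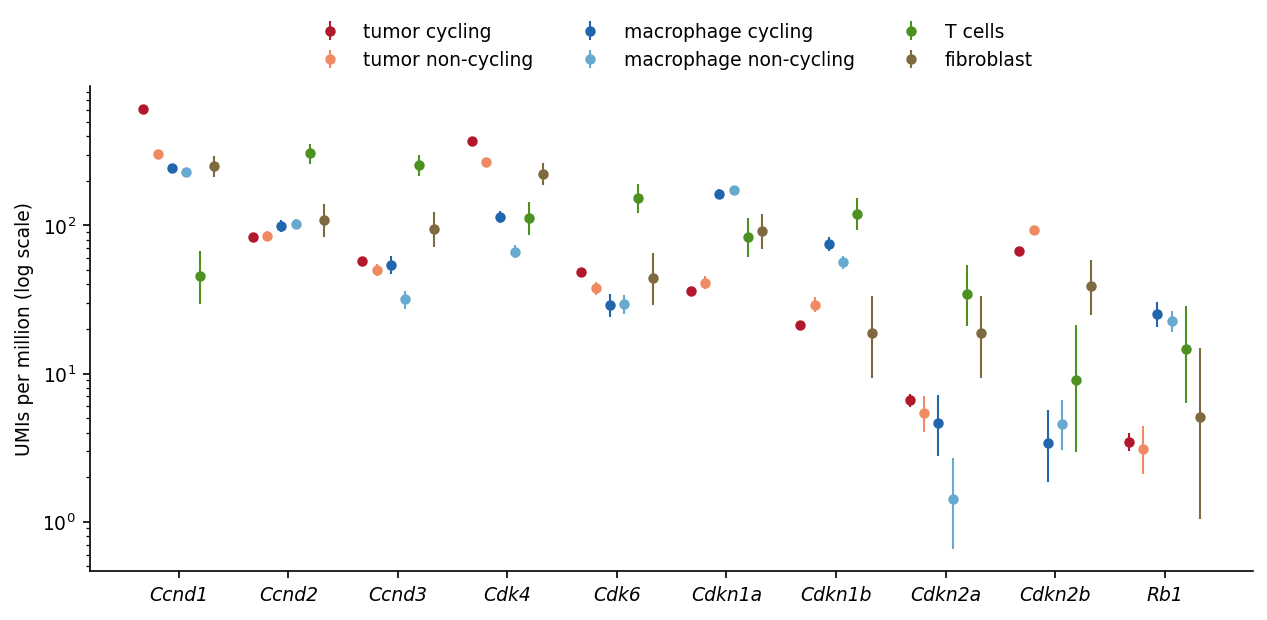
Levels of the 10 genes in the 6 cell groups, in CPM on a log scale, with 95% Poisson intervals. Ccnd1 and Cdk4 were highest in cycling tumor cells, whereas Ccnd2, Ccnd3, Cdk6 and Cdkn1b were highest in T cells. Wide bars belong to genes with few UMIs in the T cells and fibroblasts.

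Ccnd1, the D cyclin with the highest level in 5 of the 6 groups, stood at 609.8 (604–616) CPM in cycling tumor cells and 303 (292–314) in non-cycling tumor cells. Fibroblasts were at 251 (212–295), cycling macrophages at 245 (229.9–260.3), non-cycling macrophages at 228 (217–240.4) and T cells, from 25 UMIs, at 45.5 (29.4–67.1). Tumor cells thus led the order. Fibroblasts and cycling macrophages, and the macrophage classes, were not apart, since the intervals of their ratios included 1. Cycling tumor cells stood 13.4 (9.08–20.7) times over T cells. Single tumor cells varied widely. Among cycling tumor cells of at least 2000 UMIs the 25th percentile was 204.3 CPM, the median 497 and the 75th percentile 795.

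Ccnd2, a D cyclin common in lymphocytes, had another order and led in T cells with 306 (261–356) CPM. Fibroblasts followed with 109 (83.6–139), non-cycling macrophages with 102 (94.1–110), cycling macrophages with 99.2 (89.8–109), non-cycling tumor cells with 85.1 (79.4–91.2) and cycling tumor cells with 83.97 (81.7–86.3). Of the neighbors in this order, 2 pairs were apart, T cells over fibroblasts at 2.82 (2.0997–3.82) and cycling macrophages over non-cycling tumor cells at 1.16 (1.03–1.31). Ccnd3, needed for the growth of early T cells, was also highest in T cells with 255 (214–301) CPM. Fibroblasts had 94.97 (71.7–123), cycling tumor cells 57.6 (55.7–59.5), cycling macrophages 54.2 (47.3–61.8), non-cycling tumor cells 49.98 (45.6–54.6) and non-cycling macrophages 31.6 (27.4–36.3). For Ccnd3 the 3 groups in the middle were not apart from their neighbors among them.

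The mix of the 3 D cyclins separated the T cells from the other groups. Their summed levels ran from 362 CPM in non-cycling macrophages to 751 in cycling tumor cells, with 606 in T cells. Ccnd1 gave 81.2% (80.8–81.5%) of the D cyclin UMIs in cycling tumor cells, 69.2% (67.8–70.6%) in non-cycling tumor cells, 63.1% (61.1–65.1%) in non-cycling macrophages and 55.2% (49.1–61.3%) in fibroblasts. In T cells it gave 7.51% (4.92–10.9%), beside 50.5% (44.9–55.9%) from Ccnd2 and 42.04% (36.7–47.5%) from Ccnd3. T cells were the 1 group of the 6 in which Ccnd1 was the least frequent D cyclin.

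**Figure D2:**
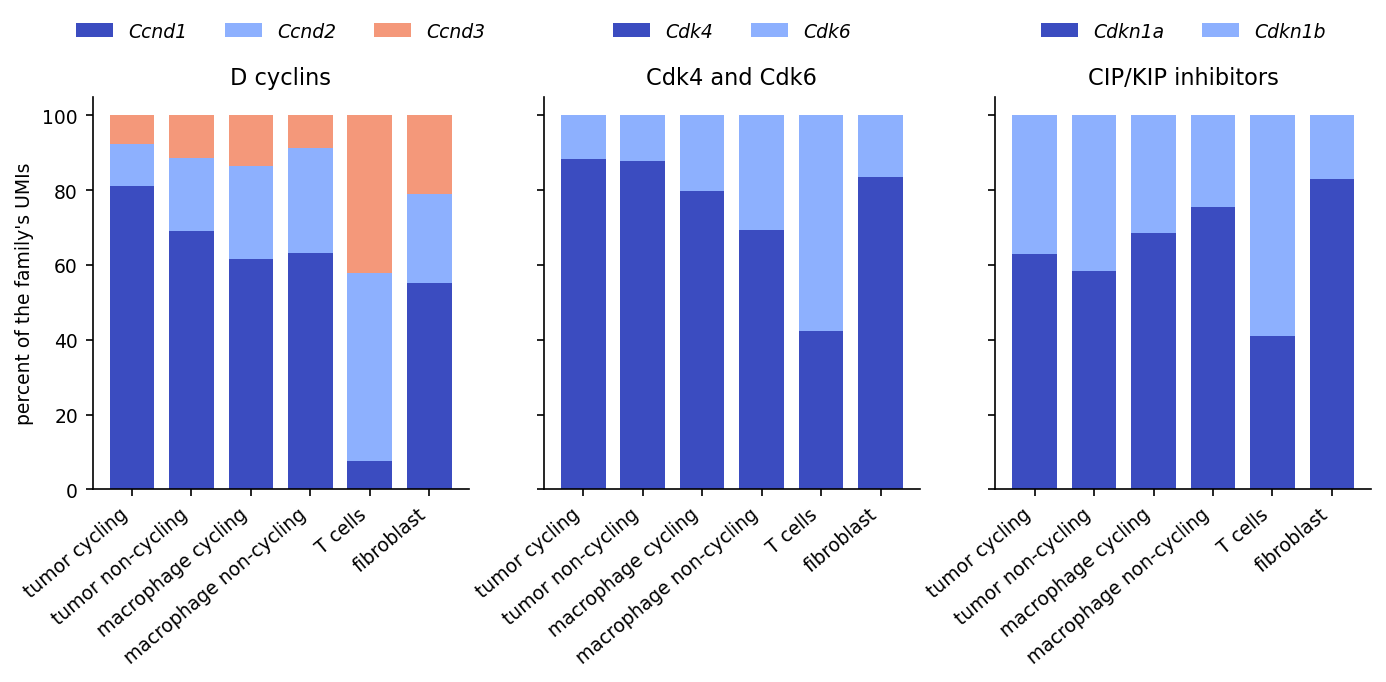
Shares of each paralog among the UMIs of its family, for the D cyclins, for Cdk4 and Cdk6, and for the CIP/KIP genes Cdkn1a and Cdkn1b. In T cells Ccnd2 with Ccnd3, Cdk6 and Cdkn1b hold the larger part, and in the other 5 groups Ccnd1, Cdk4 and Cdkn1a do. The T cell intervals of Cdk6 (49.1–65.7%) and Cdkn1b (49.2–68.1%) include an even split. The CIP/KIP panel was added after the values were known.

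Promoter sequence is shown for Cdk4, the kinase gene with the higher level in 5 of the 6 groups, and for Cdkn2a, whose 2 starts give transcripts that 3' tags cannot tell apart. RefSeq promoters (GRCm38.p6) were found for 7 of the 10 members, with 10 promoters in all, and Ccnd1, Ccnd2 and Rb1 had no entry. Both the motifs and the sequences were chosen after levels and matches were known. In total 6 motif sets were searched on both strands in the 250 bases before each start. E2F letters (TTTCCCGC or TTTGGCGC or TTTCGCGC or TTTGCCGC) were in 1.86% of all 32851 promoters and, among members, in Cdkn2a. The shorter E2F core (TTCCCGC or TTGGCGC), which overlaps the first set, was in 5.62% and again in Cdkn2a. The E-box CACGTG was in 6.02% and in Cdk4 and Cdk6, and the CHR element TTTGAA in 16.0% and in Cdkn2b. The AP-1 letters TGANTCA were in 6.75% and in no member, which says only that these letters are not in this window. The GC box GGGCGG was in 32.7% and in 5 members. In windows of 300 bases that run past the start, the members with a match were the same, except that Cdkn2b gained a GC box. A match describes letters and says nothing of a bound factor. Each sequence runs 5' to 3' on the strand of its gene. Capitals mark the E-box in Cdk4, found 4 times between 172 and 11 bases before the start, and the E2F letters in Cdkn2a, found 99 bases before the first start and not before the second.
Cdk4, chr10:127063285-127063534, plus strand: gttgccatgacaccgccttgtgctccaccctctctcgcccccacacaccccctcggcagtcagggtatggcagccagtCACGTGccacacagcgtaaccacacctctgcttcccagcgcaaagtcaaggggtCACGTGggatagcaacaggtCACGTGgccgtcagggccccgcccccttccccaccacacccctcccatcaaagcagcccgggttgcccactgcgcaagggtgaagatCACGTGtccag
Cdkn2a first start, chr4:89294620-89294869, minus strand: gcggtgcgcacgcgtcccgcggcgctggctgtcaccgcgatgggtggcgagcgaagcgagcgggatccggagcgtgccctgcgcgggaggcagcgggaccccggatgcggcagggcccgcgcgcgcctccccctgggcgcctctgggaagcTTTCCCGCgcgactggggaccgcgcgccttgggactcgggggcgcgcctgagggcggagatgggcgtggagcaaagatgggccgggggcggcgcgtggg
Cdkn2a second start, chr4:89282193-89282442, minus strand: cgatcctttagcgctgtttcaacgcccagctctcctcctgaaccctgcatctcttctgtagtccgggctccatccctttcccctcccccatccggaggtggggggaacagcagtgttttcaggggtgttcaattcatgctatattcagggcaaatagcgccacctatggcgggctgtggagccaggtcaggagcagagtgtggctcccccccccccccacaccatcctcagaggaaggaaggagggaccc

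Cdk4, a kinase that D cyclins activate, was at 369 (365–374) CPM in cycling and 268 (257–278) in non-cycling tumor cells. Fibroblasts had 224 (187–265), cycling macrophages 114 (104–125), T cells 113 (86.5–145) and non-cycling macrophages 66.6 (60.4–73.2). All neighbors in this order except cycling macrophages and T cells were apart. Cdk6, the other kinase of D cyclins, was highest in T cells with 153 (122–189) CPM. Cycling tumor cells had 48.5 (46.7–50.3), fibroblasts 44.1 (28.8–64.6), non-cycling tumor cells 37.5 (33.8–41.6), non-cycling macrophages 29.4 (25.3–33.95) and cycling macrophages 28.9 (23.96–34.6). Fibroblasts were not apart from either tumor class for Cdk6, nor the macrophage classes from each other. Of the UMIs of both kinases, Cdk4 gave 88.4% (87.99–88.8%) in cycling tumor cells, 69.4% (65.5–73.01%) in non-cycling macrophages and 42.5% (34.3–50.9%) in T cells.

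Cdkn1a, which encodes the CIP/KIP inhibitor p21, was highest among the 6 groups in macrophages, with 174 (164–184) CPM in non-cycling and 164 (152–177) in cycling cells. The 255 monocytes, outside these groups, had 267 (241–294). Fibroblasts had 91.6 (68.8–119), T cells 83.7 (61.3–112), non-cycling tumor cells 41.1 (37.1–45.3) and cycling tumor cells 35.9 (34.4–37.5). The macrophage classes were not apart, nor were fibroblasts and T cells. Among fibroblasts 11 of 54 cells had a UMI, and 1 cell held 30 of the 54 UMIs.

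Cdkn1b, which encodes the CIP/KIP inhibitor p27, led in T cells with 120.1 (92.9–153) CPM. Cycling macrophages had 74.9 (66.7–83.7), non-cycling macrophages 56.3 (50.6–62.4), non-cycling tumor cells 29.1 (25.8–32.8), cycling tumor cells 21.2 (20.05–22.4) and fibroblasts 18.7 (9.31–33.4). All neighbors except cycling tumor cells and fibroblasts were apart. Of the UMIs of both CIP/KIP genes, Cdkn1b gave 58.9% (49.2–68.1%) in T cells and 16.9% (8.76–28.3%) in fibroblasts. The fibroblast share rests in part on the single cell with most of the Cdkn1a UMIs.

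Cdkn2a encodes the INK4 protein p16 and, from its other start, the p53 regulator p19Arf. Its level was 34.6 (20.8–53.98) CPM in T cells, from 19 UMIs, and 18.7 (9.31–33.4) in fibroblasts, from 11. Cycling tumor cells had 6.59 (5.95–7.27), non-cycling tumor cells 5.39 (4.03–7.07), cycling macrophages 4.62 (2.78–7.21) and non-cycling macrophages, from 9 UMIs, 1.42 (0.651–2.701). Of the neighbors, fibroblasts and cycling tumor cells were apart, as were the macrophage classes. The T cell value rested on few cells, since 1 cell held 9 of its 19 UMIs.

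Cdkn2b, which encodes the INK4 protein p15 and lies 11645 bases from Cdkn2a on chromosome 4, was mainly a tumor cell transcript. Non-cycling tumor cells had 92.6 (86.6–98.9) CPM, cycling tumor cells 67.5 (65.5–69.7), fibroblasts 39.01 (24.7–58.5), T cells 9.097 (2.95–21.2), non-cycling macrophages 4.59 (3.07–6.59) and cycling macrophages 3.403 (1.86–5.71). The last 3 groups were not apart. The 2 genes of this locus thus had different orders over the groups. Shares of cells show how depth enters. A UMI of Cdkn2b was found in 76.3% of cycling and 54.5% of non-cycling tumor cells, with median depths of 50338 and 18684 UMIs. After thinning to 2000 UMIs the shares were 10.5% (8.75–12.4%) and 14.2% (10.9–18.1%), with 10 and 25 shallower cells left out. In non-cycling macrophages, with a median of 8867 UMIs and a percentage of the tumor level near that of tumor markers, the share was 4.16%, and 1.66% after thinning with 10 left out. The unthinned shares of the tumor classes ran against the levels, and no order was read from them.

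Rb1, the target of the kinases, had low levels throughout. Cycling macrophages had 25.3 (20.7–30.6) CPM, non-cycling macrophages 22.6 (19.1–26.6), T cells 14.6 (6.28–28.7) from 8 UMIs, fibroblasts 5.09 (1.05–14.9) from 3, cycling tumor cells 3.44 (2.98–3.94) and non-cycling tumor cells 3.11 (2.099–4.44). No neighbors in this order were apart, although cycling macrophages stood 8.13 (5.37–12.6) times over non-cycling tumor cells. In tumor cells Rb1 was the lowest of the 10 genes. Rb1 alone of the members overlaps a counted gene on the same strand, Gm17233, and the part of this in its level was not tested.

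**Figure D3:**
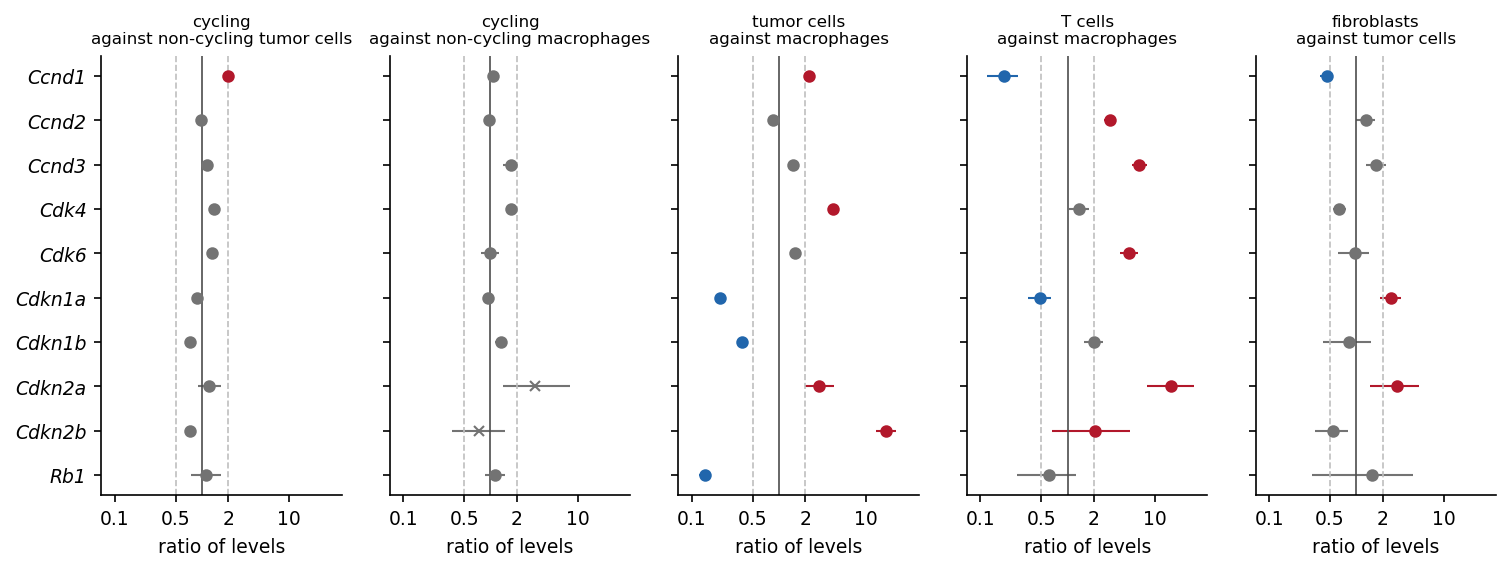
Ratios of levels in the 5 comparisons, with 95% intervals of the ratio of counts, on a log scale. Dashed lines mark 0.5 and 2. Red points passed the fold upward and blue points downward, and crosses mark genes with too few UMIs. The interval of Cdkn2b in T cells includes 1, although the point is past the fold.

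Between cycling and non-cycling tumor cells, 1 of the 10 members was past the fold upward, Ccnd1 at 2.01 (1.94–2.09), beside 5.17% of 11627 genes. None was past it downward, beside 2.22%, and a share near the background is not a result about the members. The interval of the Ccnd1 ratio lay on both sides of 2, and of 21 alternative settings 11 gave a count of 1 and 10 a count of 0. Cdk4 had a ratio of 1.38 (1.33–1.44), Cdk6 of 1.29 (1.16–1.44) and Ccnd3 of 1.15 (1.05–1.27). Of the inhibitors, Cdkn1a was at 0.875 (0.786–0.977), Cdkn1b at 0.728 (0.639–0.831) and Cdkn2b at 0.729 (0.678–0.785). The intervals of Ccnd2 at 0.986 (0.916–1.06), Cdkn2a at 1.22 (0.913–1.66) and Rb1 at 1.104 (0.7504–1.68) included 1. Beside Ccnd1 no ratio was thus past the fold over all tumor cells, and the ratios differed between splits. With the class called after thinning, Ccnd1 was at 1.34, Ccnd3 at 1.02, Cdk4 at 1.03 and Cdkn1b at 1.07, so that Cdkn1b turned to the other side of 1.

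The Ccnd1 ratio differed by depth and by tumor cluster. In 4 depth bins of tumor cells, from shallow to deep, it was 1.43 (1.25–1.64), 1.64 (1.53–1.77), 1.704 (1.5999–1.82) and 1.35 (1.23–1.48), and the last bin had 14 non-cycling cells. None of these ratios reached 2. Over all tumor cells, those with 1 UMI of the class genes included, Ccnd1 was at 306 CPM in the shallowest bin and 688 in the deepest, so its level itself moved with depth. The tumor cells formed 3 clusters, led by Gm47547, Olfr1369-ps1 and Mycn (963 cells), by Angptl7, Krt16 and Ogn (591 cells), and by Msln, Tex101 and Calcb (288 cells). The Angptl7-led cluster had the highest Col3a1 level, 2744 CPM. Within the 3 clusters the Ccnd1 ratio was 1.51 (1.44–1.58), 2.47 (2.28–2.69) and 1.66 (1.48–1.86). Without the Col3a1-high cluster no member was past the fold. In this cluster 6 of the 10 fibroblast markers were raised, and with host names put first it was called fibroblasts. The 10 markers summed to 2744 CPM in cycling and 5252 in non-cycling tumor cells, with Dcn the most abundant at 1561 and 2540 and none at 0. Their part in the ratio was not tested. These splits were made after the values were known, and the part of depth in the ratio was not tested.

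**Figure D4:**
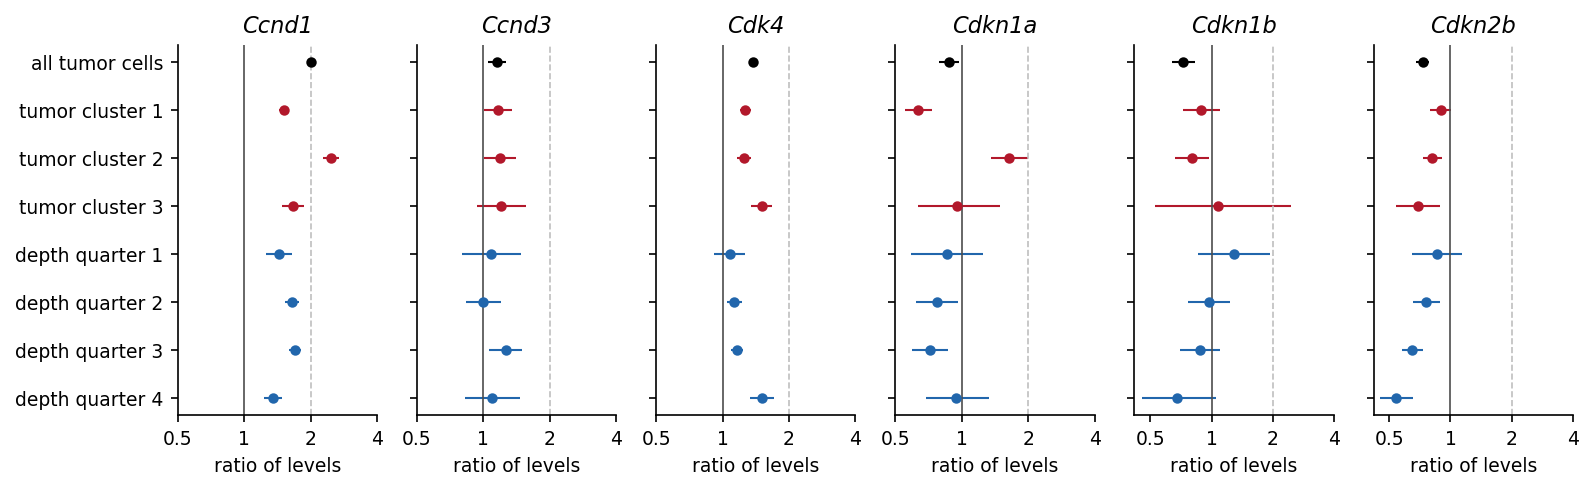
Ratio of cycling over non-cycling tumor cells for 6 members, in all tumor cells (black), in each tumor cluster (red) and in each of 4 depth bins (blue). Clusters 1, 2 and 3 are those led by Gm47547, by Angptl7 and by Msln. Ccnd1 was above 1 in each split and above 2 in 1 of the 7. Cdkn1a and Cdkn1b lay on different sides of 1 in different splits.

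Cdkn1a differed between tumor clusters in direction. Its ratio was 0.634 (0.551–0.731) in the Gm47547-led cluster, 1.65 (1.36–2.01) in the Col3a1-high cluster and 0.956 (0.636–1.49) in the Msln-led cluster, so the value over all tumor cells mixes different ratios. For Cdk4 the ratio was 1.08 (0.917–1.27) in the shallowest depth bin and 1.51 (1.33–1.72) in the deepest, and the 3 clusters gave 1.27 (1.197–1.34), 1.25 (1.16–1.34) and 1.503 (1.35–1.68). Cdkn2b gave 0.895 (0.795–1.01), 0.815 (0.729–0.911) and 0.691 (0.541–0.889). The directions of Cdk4 and Cdkn2b were thus the same in the 3 clusters, with an interval that included 1 for Cdkn2b in the first. Cdk6 was at 2.07 (1.47–2.95) in the shallowest depth bin and 1.05 (0.781–1.43) in the deepest. Cdkn2a, from few UMIs, was at 1.94 (0.999–3.8999), 6.29 (2.76–17.7), 0.866 (0.546–1.42) and 0.772 (0.368–1.94) in the 4 bins and at 1.91 (1.12–3.54) in the Gm47547-led cluster. These genes were thus past the fold in single bins and not in the deepest. For Cdkn1b the 4 depth bins gave 1.29 (0.856–1.94), 0.971 (0.7699–1.23), 0.874 (0.696–1.11) and 0.676 (0.454–1.05), each with an interval that included 1.

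Between cycling and non-cycling macrophages 0 of 8 measured members were past the fold upward, beside 5.5% of 9111 genes, and 0 downward, beside 0.856%. Cdkn2a and Cdkn2b had too few UMIs. Cdk4 at 1.72 (1.505–1.97) and Ccnd3 at 1.71 (1.41–2.08) were the highest, and Cdkn1b was at 1.33 (1.14–1.55). The intervals of Ccnd1 at 1.07 (0.988–1.16), Ccnd2 at 0.974 (0.858–1.104), Cdk6 at 0.983 (0.775–1.24), Cdkn1a at 0.944 (0.857–1.04) and Rb1 at 1.12 (0.8599–1.45) included 1. Of the 301 cycling macrophages 173 lay in a cluster led by Esco2, which had 2 non-cycling cells, so the classes also differed in cluster. Within the clusters led by Gm13710 and by Npy, Cdk4 was at 1.78 (1.398–2.26) and 1.55 (1.17–2.05). Ccnd3 was at 1.91 (1.31–2.75) and 0.838 (0.503–1.34), and Cdkn1b at 1.02 (0.723–1.41) and 0.827 (0.561–1.19). Of these 3 genes only Cdk4 had intervals above 1 in both clusters, and it did not reach 2. Cdkn1a was at 0.619 (0.469–0.806) and 1.16 (0.987–1.36) in the same clusters, and Ccnd1 at 0.702 (0.497–0.971) and 1.42 (1.18–1.699) in the 2 shallower of 4 depth bins. The values near 1 over all macrophages thus mix different ratios for Cdkn1a and Ccnd1. In the 4 bins, from shallow to deep, Cdk4 was at 1.47 (0.867–2.42), 1.26 (0.867–1.803), 1.67 (1.26–2.22) and 1.85 (1.499–2.29). Ccnd3 was at 1.86, 1.66, 2.12 (1.44–3.101) and 1.66, so it was past the fold in the third bin. Cdkn1b was at 1.28, 1.46, 1.24 and 1.88 (1.42–2.51). With cell groups from single markers Cdk4 was at 3.502 and Ccnd1 at 2.18, and Cdkn1a at 0.499 and Cdkn1b at 0.761. The single-marker rule asked macrophages for Adgre1 and a C1q gene, and did not leave out tumor cells. With it Cdkn2b, mainly a tumor cell transcript, went from 0.742 to 5.6. The part of tumor cells in these values was not tested. The count of 0 thus holds over all cells of the groups used here, and not for each depth bin or with single markers. Whether the cell types differ in the Ccnd1 ratio was not tested.

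Tumor cells against macrophages had 4 members past the fold upward, beside 27.7% of 12507 genes, and 3 downward, beside 19.4%. Higher were Cdkn2b at 16.6 (12.9–21.8), Cdk4 at 4.16 (3.92–4.41), Cdkn2a at 2.85 (1.98–4.24) and Ccnd1 at 2.23 (2.15–2.31). Lower were Rb1, 7.03-fold (5.95–8.32), Cdkn1a, 4.76-fold (4.51–5.03), and Cdkn1b, 2.68-fold (2.46–2.91). With cell groups from single markers Ccnd1 was at 1.39, Cdk4 at 1.903 and Cdkn2b at 2.59, so the first 2 were no longer past the fold. The single-marker macrophages were not cleared of tumor cells, as said above. With the level as the mean over cells Cdkn2a was at 4.59. The directions were the same, and the sizes depended on how the cells were grouped and the level was taken. With shares this high among all genes, the counts say little of the members as a set.

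T cells against macrophages had 5 members past the fold upward, beside 12.4% of 9777 genes, and 2 downward, beside 19%. Higher were Cdkn2a at 15.3 (8.17–27.97), with the single cell named above among its UMIs, Ccnd3 at 6.64 (5.47–8.01), Cdk6 at 5.08 (3.97–6.44), Ccnd2 at 3.07 (2.598–3.603) and Cdkn2b at 2.08 (0.652–5.13). The Cdkn2b ratio rested on 5 UMIs in T cells and had an interval that included 1, and its percentage of the tumor level was near that of tumor markers, so it is not read as a T cell transcript. The count was 4 when a myeloid subcluster of 24 cells led by tumor genes, set apart after its genes were seen, was kept as macrophages, and the Cdkn2b ratio was under 2 in other ways of grouping the cells too. Lower were Ccnd1, 5.42-fold (3.67–8.39), and Cdkn1a, 2.09-fold (1.56–2.86). Cdkn1b at 1.996 (1.53–2.57) lay just under the limit. With cell groups from single markers Ccnd1 was at 0.484, Cdkn1a at 0.515, Ccnd3 at 3.51, Cdk6 at 2.99 and Cdkn2a at 6.05. The directions of these 5 genes were the same, and Cdkn1a was no longer past the fold. Neither single-marker group was cleared of tumor cells.

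Fibroblasts against tumor cells had 2 members past the fold upward, beside 25.6% of 11896 genes, and 1 downward, beside 9.47%. Cdkn2a was at 2.898 (1.44–5.23) from 11 UMIs, Cdkn1a at 2.499 (1.87–3.27), and Ccnd1 was 2.19-fold (1.86–2.59) lower. Of the fibroblast UMIs, 1 cell held 30 of 54 for Cdkn1a and 1 held 52 of 148 for Ccnd1. The ratios also depended on how the cells were grouped and the level was taken. Over the alternatives the Ccnd1 ratio ran from 0.147 to 0.559, and the Cdkn2a ratio from 1.48 to 4.87. The Cdkn1a ratio turned to 0.416 with at most 10% mitochondrial UMIs, which left 22 fibroblasts, and to 0.756 with 3000 variable genes, which left 24.

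Cycling tumor cells were divided at the median ratio of G2/M-list to S-list UMIs into 578 G2/M-leaning and 579 S-leaning cells, with median depths of 49738 and 51065 UMIs. No member was past the fold upward, beside 1.11% of 11377 genes, and 1 was past it downward, beside 0.73%. This was Cdkn1a, 2.04-fold (1.86–2.23) lower in the G2/M-leaning cells, with an interval on both sides of 2. The downward count was 0 in 8 of 20 alternatives. Ccnd1 was at 1.15 (1.12–1.17), Cdk4 at 1.03 (1.01–1.06), Cdk6 at 0.865 (0.804–0.931) and Cdkn1b at 1.24 (1.11–1.39). Among cyclins outside the members, Ccne2 was 4.12-fold (3.43–4.98) and Ccne1 2.83-fold (2.598–3.09) lower in the G2/M-leaning cells, and Ccnb1 was at 5.604 (5.14–6.12) and Ccna2 at 2.57 (2.402–2.76). Ccnb1 belongs to the G2/M list that made the division, so its ratio was set by it and is no measure for the members. Of the D cyclins and their kinases none was past the fold.

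**Figure D5:**
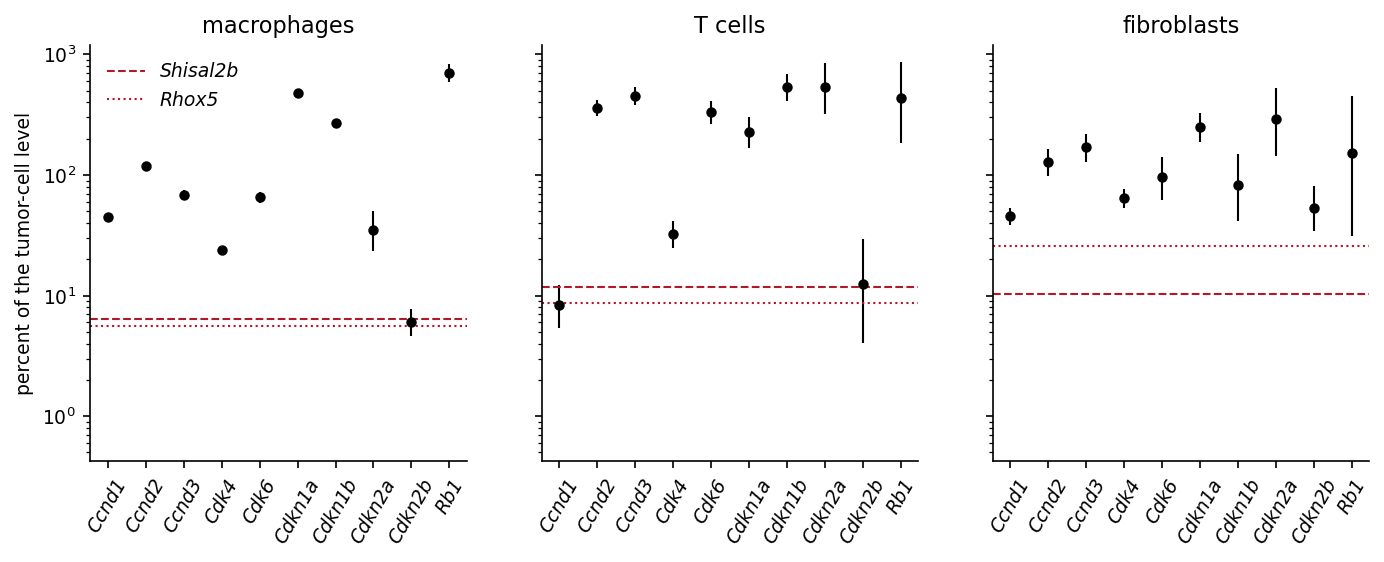
Level of each member in host cells as a percentage of its level in tumor cells, on a log scale with 95% intervals. Red lines give the same percentage for the tumor cell markers Shisal2b (dashed) and Rhox5 (dotted). Cdkn2b in macrophages and Ccnd1 and Cdkn2b in T cells lie near the lines.

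UMIs of tumor cell markers were also found in host cells, and free RNA, doublets and mixed cells cannot be told apart as their source. Shisal2b reached 6.44% (5.55–7.43%) of its tumor level in macrophages, 11.9% (6.48–19.9%) in T cells and 10.3% (5.46–17.5%) in fibroblasts. Rhox5 reached 5.59% (5.13–6.09%), 8.67% (5.97–12.2%) and 25.7% (21.02–31.1%). Cdkn2b was at 6.02% (4.59–7.76%) of its tumor level in macrophages and 12.5% (4.07–29.3%) in T cells, and Ccnd1 was at 8.28% (5.36–12.2%) in T cells. For these 3 values a host transcript and RNA from tumor cells cannot be told apart. In fibroblasts Cdkn2b was at 53.7% (34.03–80.7%) and Ccnd1 at 45.7% (38.6–53.7%). These values rest in part on single cells, since 1 fibroblast held 13 of the 23 Cdkn2b UMIs and 1 held 52 of the 148 Ccnd1 UMIs. If tumor RNA reached the highest marker percentage of a group, it would be 141 of the 251 CPM of Ccnd1 in fibroblasts. For Cdk4 it would be 89.8 of 224 CPM in fibroblasts and 41.4 of 113 in T cells. No level or share was corrected for this. The markers used had at least 200 UMIs in tumor cells, a limit set after the values were known.

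Other genes of the pathway, in lists chosen by function, give the setting. Of 7 genes of cyclins E, A and B with their kinases, 7 were past the fold upward in cycling tumor cells, led by Ccna2 at 11.97 (9.18–15.9) and Ccnb1 at 7.89 (6.36–9.92), and 7 in cycling macrophages, led by Ccna2 at 16.5 (11.5–24.5). Of 16 S phase targets of E2F, 15 were past it in tumor cells, led by Cdc6 at 11.5 (7.23–19.4) and Rrm2 at 9.66 (8.27–11.3), and 14 in macrophages, led by Tk1 at 10.8 (8.61–13.8). The S phase list gave 19 of 20 in tumor cells and 17 of 20 in macrophages. The G2/M list gave 21 of 21 and 21 of 21, with Nusap1 at 31.2 (18.9–55.7) and 34.7 (21.95–58.2). These counts stand beside 5.17% of all genes in tumor cells and 5.5% in macrophages. Since Mki67 and Top2a set the class, nothing is read from them.

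Of 12 pocket protein and E2F genes, 4 were past the fold upward in cycling tumor cells, E2f7 at 6.87 (3.699–14.4), E2f8 at 3.3997 (2.61–4.52), E2f2 at 2.99 (1.83–5.19) and Rbl1 at 2.74 (2.09–3.67), and 6 in cycling macrophages, beside 5.17% and 5.5% of all genes. Rbl1, a relative of Rb1, was thus higher in the cycling class where the interval of Rb1 included 1. E2f8 is also in the S phase list, from whose counts nothing is read. Of 4 further inhibitors, 2 were past it in tumor cells, Cdkn2d at 3.26 (2.795–3.82) and Cdkn3 at 2.08 (1.79–2.42). In macrophages 3 of 3 measured were, Cdkn3 at 8.74 (6.25–12.5), Cdkn2c at 6.77 (4.91–9.503) and Cdkn2d at 5.76 (4.58–7.302). Cdkn2d and Cdkn3 were past the fold in both cell types, beside the same shares of all genes. The class was set by Mki67 and Top2a here too, so nothing is read from these counts or those of the pocket protein list. In fibroblasts Cdkn1c, the third CIP/KIP gene, was 80.4 (51.9–123) times its tumor cell level.

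Of 15 measured p53 targets, 0 were past the fold upward in cycling tumor cells and 1 downward, Btg2, 2.62-fold (2.34–2.93), beside 5.17% and 2.22% of all genes, so these counts say little of the list. Against macrophages, tumor cells had 4 of 18 past it upward, led by Eda2r at 14.5 (6.61–39.7), and 4 downward, Pmaip1, 66.4-fold (37.7–127), Btg2, 25.6-fold (24.4–26.99), and Trp53inp1, 16.4-fold (10.8–25.6), among them. Beside 27.7% and 19.4% of all genes in this comparison, these counts say little of the list. Cdkn1a, itself a p53 target, was lower in tumor cells, and the list had genes in both directions. Of 12 genes for turnover of D cyclins and p27, 4 were past it upward in cycling tumor cells, Kpna2 at 4.24 (3.38–5.38), Cks2 at 3.49 (3.26–3.75), Cks1b at 2.58 (2.43–2.75) and Skp2 at 2.36 (1.89–2.97), beside 5.17% of all genes. Cks2 is also in the G2/M list, from whose counts nothing is read. Skp2 and Cks1b belong to the ligase that marks p27 for breakdown. In cycling macrophages the count was 4, with Cks1b at 6.09 (5.26–7.08) and Skp2 at 2.11 (1.48–3.04), beside 5.5%. Nothing is read from the turnover counts of the cycling classes either, since Mki67 and Top2a set these classes.

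Of 12 measured genes of mitogen input, Etv4 at 2.06 (1.58–2.71) was past the fold upward in cycling tumor cells, and Egr1, 2.57-fold (2.37–2.79), and Fos, 2.22-fold (2.12–2.32), downward, beside 5.17% and 2.22% of all genes. Against macrophages, tumor cells had 5 of 13 past it upward, led by Fosl1 at 15.2 (12.4–18.8) and Etv4 at 11.5 (6.797–21.1), and 4 downward, with Fos 7.57-fold (7.39–7.75) lower. These counts too stand beside 27.7% and 19.4% of all genes and say little of the list. Of 6 measured neighbors and regulators of the Cdkn2a locus, 6 were past it upward in tumor cells, beside 27.7% of all genes, led by Elavl2 at 21.8 (7.41–106) from 3 UMIs in macrophages and Mtap at 6.08 (5.48–6.77).

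In T cells against macrophages, 3 of 12 pocket protein and E2F genes were past the fold upward, Rbl2 at 3.99 (2.69–5.75), Tfdp2 at 2.73 (1.06–5.96) and E2f4 at 2.23 (1.5001–3.2004), beside 12.4% of all genes. E2f5, from 1 UMI in T cells, was past it downward, 4.404-fold (0.774–175), beside 19%. Cbx7 at 9.18 (5.03–16.04) and Mllt3 at 8.76 (5.43–13.7) were past it upward among 5 measured locus genes. In the turnover list Foxo1 at 4.68 (2.66–7.803) was past it upward, and Skp2, 3.28-fold (0.894–27.3), and Foxo3, 2.22-fold (0.856–8.23), downward, both with an interval that included 1. Of 9 measured genes of mitogen input, 5 were past it downward, led by Fos, 19.99-fold (14.2–29.1), and Dusp6, 4.67-fold (2.87–8.19), beside 19% of all genes. In fibroblasts against tumor cells the same list had 6 of 13 upward, led by Spry4 at 9.36 (6.36–13.3), and 2 downward, with Fosl1 5.17-fold (2.96–10.003) lower, beside 25.6% and 9.47% of all genes.

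As context, the genes of the whole table with the highest and lowest ratios were named. Between tumor classes these were the class genes Top2a and Mki67 with Hist1h1a, against the matrix genes Aspn, Ogn and Mgp. Between macrophage classes they were Top2a, Mki67 and Esco2 against Folr2, Hmox1 and Gas6. Tumor cells against macrophages had Fjx1, Tex101 and Dlx1 against Gm26740, Btk and Nectin4. T cells against macrophages had Cd8b1, Ccl1 and Cxcr6 against Mpeg1 and Fcgr1. Fibroblasts against tumor cells had Tagln, Hp and Serpine2 against Cox6a2, Igf2bp2 and Chac1.

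Likeness was taken as the Pearson correlation of log2 levels over 20 clusters of this 1 library, which share its depth differences, and is a description. Each member was set against 10988 genes. Some of the clusters were unnamed and shallow, 1 of them with 33736 UMIs in all. Cdkn2a had 563 UMIs in all kept cells, so its values rest on few counts in such clusters. Ccnd1 was most like Mrps18a (0.8198), Avpi1 (0.7999) and Ubtd1 (0.787), and Ccnd2 like Fip1l1 (0.919), Arpc5l (0.913) and Uckl1 (0.912). For Ccnd3 the genes were Plscr1 (0.843), Sdhaf1 (0.842) and Fyn (0.837). The kinase Cdk4 had the closest partners of the 10, Txnl1 (0.951), Clpp (0.951) and Pdap1 (0.938), and Cdk6 had Agfg1 (0.901) and Aqr (0.874). Among the inhibitors, Cdkn1a was closest to Junb (0.949), Zfp36 (0.921) and Dusp1 (0.921). Cdkn1b was closest to Btg1 (0.925), Zfp36l2 (0.919) and Ikbkb (0.8901). The INK4 genes differed, with Mlf1 (0.768), Cep112 (0.759) and Jcad (0.755) for Cdkn2a and P3h4 (0.944), Gng11 (0.937) and Apol9a (0.9304) for Cdkn2b. Rb1 was close to Tm6sf1 (0.901) and Prkcb (0.891). Among the members themselves the closest pairs were Ccnd2 with Ccnd3 (0.739), Cdk4 with Cdkn2b (0.704) and Cdkn1a with Cdkn1b (0.697).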

How the data were processed

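The values are UMI counts per gene and cell barcode, which the authors made with Cell Ranger and deposited (version 5.0.1 in the file header). The library labelled WT was taken as the control pool. Computed here were filters (at least 200 genes, at most 20% mitochondrial UMIs), simulated-doublet scores, Leiden clusters (2000 variable genes, 30 components, resolution 0.5), pooled CPM per cell group, ratios, and exact Poisson, Clopper-Pearson and conditional intervals. The ratio step was tested on simulated counts. That test first failed, in fibroblasts, where few UMIs put unaltered genes past the fold, and the genes it must recover were then limited to those with enough expected UMIs in both groups. Counts past the fold in T cells and fibroblasts are therefore less certain. Members and lists were chosen with earlier results of these data known.

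All 10 members were named, with at most 4 genes past the fold per list and comparison by size of the ratio, the 3 genes at each end of each comparison with at least 200 UMIs, and the 3 most like each member, except for 3 genes in all that were not used here. The rule that names clusters was revised after the data were seen. Its first form, with every cell that had a Ptprc UMI as the reference, named no tumor cluster and gave no values. Later forms set tumor clusters against myeloid clusters, let the tumor name precede host names, asked more of shallow clusters, and left unnamed a myeloid subcluster led by tumor genes. The last 3 steps were also run without them, among 4 alternatives added to the 18 chosen earlier. Depth bins, ratios within clusters, the CIP/KIP shares, the limit on tumor markers in host cells and the motifs were also chosen after values were seen. Positions came from GENCODE M21 (GRCm38). Tools: numpy 2.4.6 and pandas 2.3.3 under Python 3.11.15. Clustering used leidenalg 0.10.2 on igraph 0.11.9 graphs and scikit-learn 1.9.0, intervals scipy 1.17.1, and figures matplotlib 3.10.9.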

Additional observations from a re-analysis of the deposited data

How the results depend on the processing

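Results were recomputed under 18 alternatives chosen at the start and 4 added after the data were seen. The totals include settings that cannot change a given comparison, such as the cycling class where whole cell types are compared. Equal values there were fixed beforehand, so the totals of equal counts overstate how stable a result is. The Ccnd1 ratio of cycling over non-cycling tumor cells was above 1 in 20 of 20 alternatives, from 1.34 to 2.09. The count of members past the fold upward was 1 in 11 of 21 alternatives and 0 in 10: at most 10% mitochondrial UMIs, doublets kept, random seed 2, cell groups from single markers, cycling from 1 UMI, class after thinning, 1 UMI per 10000, cells between the 25th and 75th percentile of UMIs, without the Col3a1-high cluster, and host names first. For the tumor classes the last 2 leave out the same cluster. The downward count was 0 in 21 of 21.

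For macrophage classes the upward count of 0 became 4 with single markers and 2 at a fold of 1.5, and the downward count of 0 became 1 with single markers. The single-marker macrophages were not cleared of tumor cells. For tumor cells against macrophages the upward count of 4 became 2 with single markers, without Ccnd1 and Cdk4, 3 for the mean over cells and 5 at a fold of 1.5, and the downward count was 3 in 20 of 20. For T cells against macrophages the upward count was 5 in 10 of 20 alternatives and ran from 3 to 6, with 3 at no mitochondrial limit and 3 with no rule for shallow clusters. The totals for these whole cell types include the cycling class settings, which cannot change them. The downward count of 2 became 1 with single markers, and 3 with all cells of the T and NK-like cluster and at a fold of 1.5. With single markers the Cdkn2b ratio reversed to 0.854.

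For fibroblasts against tumor cells the upward count was 2 in 12 of 19 alternatives and ran from 0 to 4. The others included 0 with at most 10% mitochondrial UMIs, 4 with no limit and 1 with 3000 variable genes. They also included 0 for the mean over cells, 4 at a fold of 1.5 and 0 with host names first. The downward count of 1 became 2 with at most 10% mitochondrial UMIs, 2 with single markers, 4 for the mean over cells, 3 at a fold of 1.5 and 0 with host names first. The Cdkn1a ratio reversed to 0.416 and 0.756. Other fibroblast ratios also crossed 1, among them Cdkn2b at 1.62 with host names first, and Ccnd3 at 0.782 and Cdkn1b at 2.48 with no limit on mitochondrial UMIs. Fibroblast cells numbered 645 with host names first, against 54, and were also many more with no limit on mitochondrial UMIs. With at least 500 genes per cell no fibroblast cluster was named, so there was no value.

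For G2/M-leaning against S-leaning cells the downward count of 1 became 0 in 8 of 20 alternatives: at most 10% or no limit on mitochondrial UMIs, at least 500 genes, doublets kept, 20 components, seed 2, cycling from 1 UMI, and the 25th to 75th percentile. The Cdkn1a ratio ran from 0.445 to 0.663. The cause was not tested for any of these. Of 1150 member ratios, 1021 stayed within the counting interval of the reported value. Among these are ratios that a setting cannot change, and ratios with wide intervals, so the count is no measure of stability. T cells and fibroblasts had few UMIs, which limits what their counts can show.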
